A study of Mus musculus with 16 samples.

Results

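Splenic donor CD4+ T cells of mice given an allogeneic haematopoietic stem cell transplant were compared with those of mice given a syngeneic transplant, on 2 arrays each, 4 of the 16 arrays of the series. The arrays were chosen by their titles alone, and they are all the CD4 arrays that the series holds from spleen. All mice were female and of C57BL/6 background per the labels. The 2 groups are splenic CD4+ donor cells after allogeneic transplantation and after syngeneic transplantation. The labels give no donor or recipient strain beyond that background, no age, no conditioning regimen and no time after transplantation. The same holds for the other arrays, which carry CD4+ and CD8+ donor cells of the ovary after allogeneic transplantation and splenic CD8+ donor cells after either transplant. For each sample a limited number of cells went through 2 successive sorts straight into Trizol, and their RNA was amplified and labelled with Cy3. Whether replicates are separate animals or pools of animals is not given in the labels nor are the markers that told donor cells from cells of the host.

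In an allogeneic transplant the donor's T cells meet histocompatibility antigens that differ from their own, and those that recognise them divide, take up effector functions and can damage organs, which is graft-versus-host disease. In a syngeneic transplant donor and recipient are genetically matched, so that donor T cells refill the host without an alloantigen. CD4+ cells act mainly as helpers through cytokines and costimulatory ligands. Naive T cells carry the homing receptor CCR7 and recirculate through lymphoid organs, and effector cells lose it while they gain receptors of inflamed tissue. T cells that keep meeting antigen carry inhibitory receptors such as PD-1, LAG-3, TIM-3 and TIGIT.

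Some arrays stood apart. The 75th percentile of the processed signal was 141 and 67.6 units on replicates 1 and 2 of the allogeneic group and 316 and 181 on those of the syngeneic group, and allogeneic replicate 2 was the dimmest of the 16. Spots well above background made up 49.6% and 41.8% of the allogeneic arrays and 58.7% and 53.4% of the syngeneic arrays. Over all tested features, syngeneic replicates correlated with Pearson r = 0.979 and allogeneic replicates with r = 0.933, while allogeneic replicate 2 and syngeneic replicate 2 had r = 0.949. These correlations are across features, which are not independent replicates. Over features above background on all 4 arrays the same values were 0.983, 0.954 and 0.963. Some well-measured features were missing from single allogeneic arrays: 568 features were above background on the 15 other arrays but not on allogeneic replicate 1, and 798 not on replicate 2, against 4 and 13 for the syngeneic replicates. The allogeneic replicates differed by over 8-fold at 667 features, of which 642 were lower on replicate 1. Among them were Rps7, a ribosomal protein gene, at 1.26 on replicate 1 and 7.63 on replicate 2, and Sdhd, a subunit of succinate dehydrogenase, at -3.52 and 3.92 in the log2 unit explained next. Results that rest on 1 array are therefore given with and without it.

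Signals are given as log2 of the processed signal minus the array's own 75th percentile, so that 0 is the level of that percentile and 1 unit is 2-fold. Differences are allogeneic minus syngeneic on this log2 scale ± the standard error of a limma fit over all 16 arrays. The words rose and fell are kept for a Benjamini-Hochberg adjusted p under 0.05 over all 24651 tested features. Replicates 1 lay on slide 1 and replicates 2 on slide 2, so the difference within a slide is that between arrays of the same number. Where a call was lost when 1 of the 4 arrays was left out, that array is named. Other calls of genes named here were kept without any 1 of them. "At least N-fold" is written where the lower group was not well above background on either array, and sets the higher group's mean against the detection limit of the lower group's arrays, the lowest signal that passed as well above background on each, or against the probe's own signal where that is higher. The p-values measure the spread between these samples only, which may be technical.

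Among 24651 tested features, 3814 differed between allogeneic and syngeneic splenic CD4 cells (15.5%). Of these 2347 were higher (9.52%) and 1467 lower (5.95%) after allogeneic transplantation, and 2241 of the 12888 features with a gene symbol were called (17.4%). The gene lists below hold only features with a symbol, so this last share is the one to set beside each list's calls. All 3814 had allogeneic and syngeneic arrays that did not overlap, as did 51.2% of all features, and so had the same direction on both slides. Called falls lay more often under the detection limit: the allogeneic group was not well above background on either array for 344 of the 1467 falls, and the syngeneic group for 87 of the 2347 rises. The part of the dimmer allogeneic arrays in this was not tested. A separate fit of the 18414 features whose probe was above background on all 4 arrays, with its own adjustment, called 2387 higher and 983 lower, and 2965 of its calls were among the 3814. The calls draw on the spread of all 6 groups. A fit of the 4 CD4 arrays alone called 7 features, with 4156 at an unadjusted p under 0.05, and estimated array weights left 987. With the slide as a block 5324 features were called. Fitted within slide 1 the count was 6628 and within slide 2 it was 0, with 3996 at an unadjusted p under 0.05; in both the lone CD4 array of each group is assumed to vary like the other groups. Without allogeneic replicate 1 or 2 the count was 3628 or 4553, and without syngeneic replicate 1 or 2 it was 1387 or 2580.

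**Figure D1:**
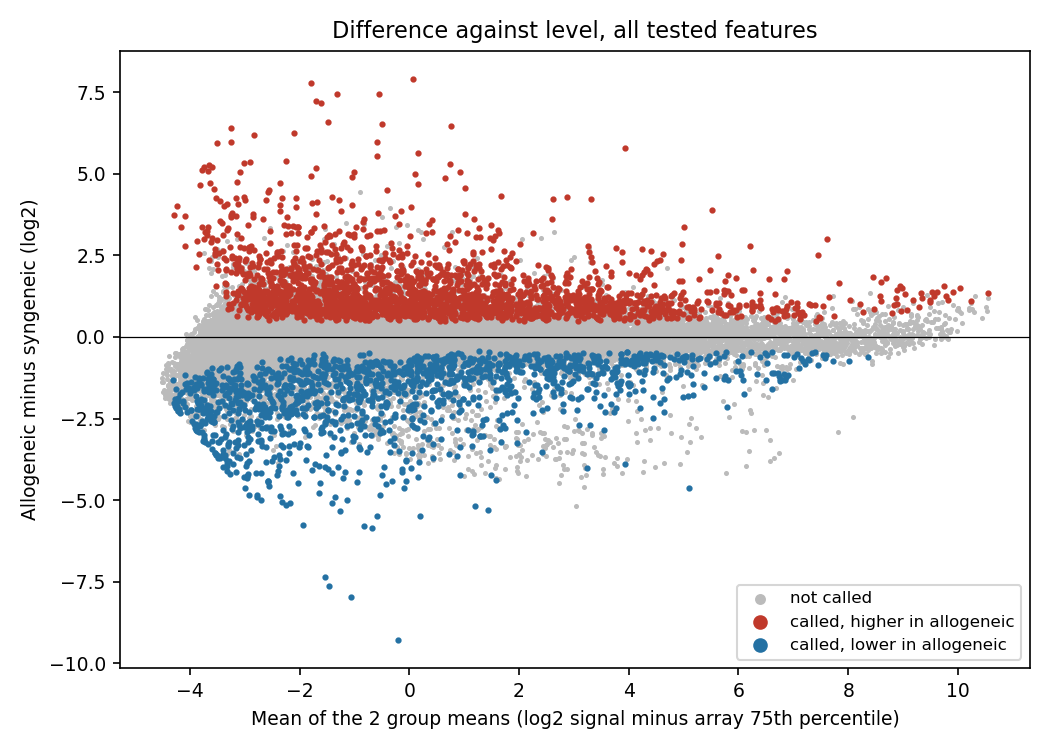
Difference between allogeneic and syngeneic splenic CD4 cells (vertical axis, log2) against the mean of both group means (horizontal axis, log2 signal minus the array's 75th percentile) for 24651 features. Red points are the 2347 called higher, blue the 1467 called lower and grey the uncalled features; the blue points at the lower left follow a slanted edge at low signal, where allogeneic arrays were under background.

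The sorted cells carried the T-cell signal in all 4 samples. All 12 T-cell markers were above background on every array, and Cd3e, a chain of the T-cell receptor complex, was at 7.15 and 7.33 on the allogeneic arrays and 6.75 and 6.99 on the syngeneic arrays. Cd4 was at 4.66 and 4.97 against 4.52 and 4.48, a difference of 0.31 ± 0.22 (adjusted p = 0.386). Cd8a was not well above background on any of the 4 arrays and was not tested. Zbtb7b, the factor of the CD4 lineage, was above background on all 4 arrays and differed by 0.06. Cd40lg, the helper ligand that is the last of the 3 CD4-lineage markers, was below background on both allogeneic arrays, at -4.77 and -3.86 against -3.80 and -3.34, and was not called. Cd4 and Zbtb7b were thus present as labelled, while Cd40lg passed as well above background on the syngeneic arrays only. The lowest signals that passed on the allogeneic arrays were -3.95 and -2.50, and the latter lies above both syngeneic values of Cd40lg. Cd8b1, the other chain of the CD8 co-receptor, was measured on all 4 arrays, at -1.65 and -1.93 against -0.15 and 0.17, and fell by 1.80 on the log2 scale (adjusted p = 0.00214). The transcription factor Runx3, counted with the CD8 lineage, rose by 0.97 ± 0.19. Among the T-cell markers Cd3g rose by 1.14 ± 0.23 and Cd2, an adhesion receptor, by 0.99 ± 0.18.

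Genes of other spleen cells also differed between the groups. Of 13 tested B-cell markers, 9 fell and 0 rose, with a median difference of -2.31, and 4 fell without syngeneic replicate 1. Cr2, the complement receptor of B cells, was at 1.1 and 0.25 against 4.16 and 2.99, and Cd72, a B-cell co-receptor, at 1.07 and 1.0 against 2.98 and 2.84. The B-cell markers summed to 22.3 and 19.2 times the array's 75th percentile on the allogeneic arrays and to 129 and 74.8 times on the syngeneic arrays. Macrophage markers went the other way, with sums of 165 and 162 against 43.2 and 81.5, and 4 of 18 tested rose. Among these, C1qb, a complement subunit made by macrophages, rose by 1.89 ± 0.36 and Siglec1, a sialic acid receptor of macrophages, was at least 3.55-fold higher. Cd5l, another of the 4, lost its call without any 1 of the 4 arrays. The macrophage receptor gene Vsig4 was below background on all 4 arrays.

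Of 9 tested dendritic-cell markers 4 fell, Flt3, Clec9a, Cd209a and Clec4a4, all of them below background on both allogeneic arrays. Of these Cd209a alone kept its call without any 1 array. Between 1 and 5 fell when 1 array was left out, and without allogeneic replicate 1 or syngeneic replicate 2 another marker of the list rose. The summed dendritic-cell level rests on Siglech, which was not called (0.76 ± 0.37). NK-cell genes were split: Klrb1c fell, as did Klra8, whose call was lost without either replicate 1 and whose further probe differed by -0.45, and Eomes, which T cells also express, rose, while Ncr1, the receptor that defines NK cells, was below background on 3 of 4 arrays. In neutrophil markers 0 of 7 and in erythroid and platelet markers 0 of 7 were called by limma, with 1 at an unadjusted p under 0.05 in each, but both varied between replicates: S100a9 was at -4.03 and 5.26 on the syngeneic arrays and the haemoglobin gene Hba-a1 at 3.90 and 1.31 on the allogeneic arrays. Of 8 stromal and endothelial markers, Dcn, a matrix proteoglycan, rose by 4.70 ± 0.50, while Cdh5 was below background on 3 of 4 arrays and Pdgfrb on all 4. Plasma-cell markers summed to 47.6 and 47.5 against 27.8 and 54.0, with Prdm1 called higher of 4 tested. In bulk samples, fewer cells of a type and less RNA per cell cannot be told apart. The part of other cells in the results that follow was not tested.

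**Figure D2:**
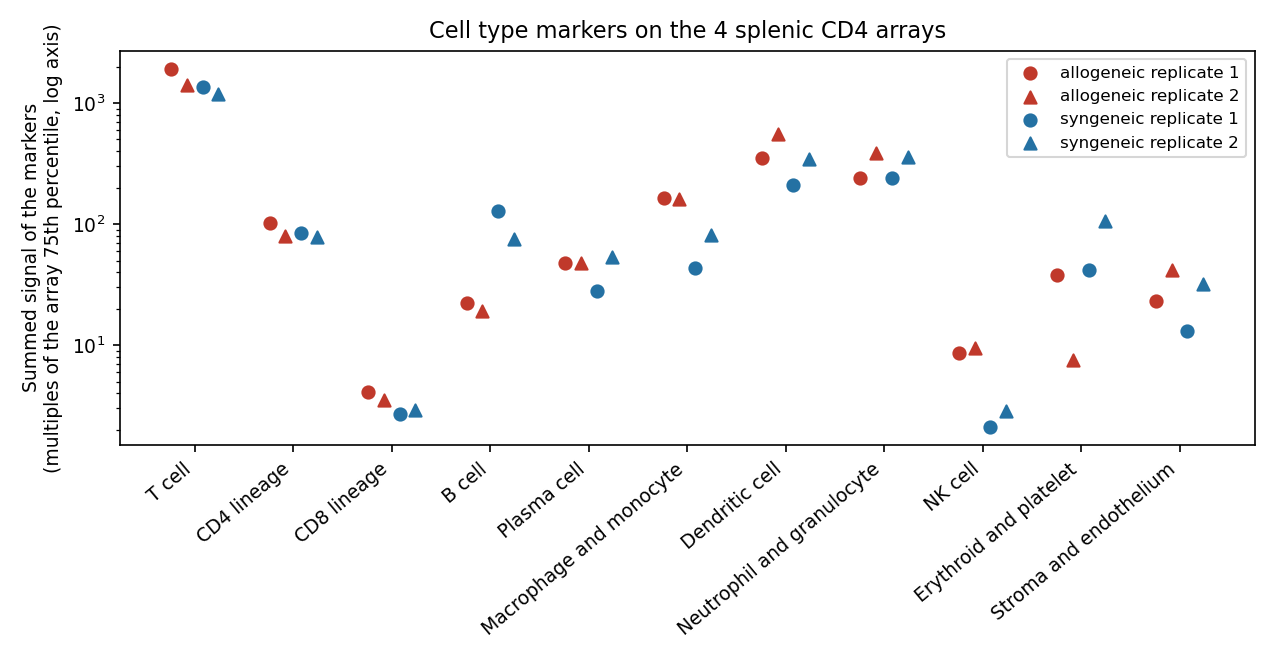
Summed signal of each cell type's markers on the 4 splenic CD4 arrays, in multiples of the array's 75th percentile on a log axis; circles are replicates 1 and triangles replicates 2, red allogeneic and blue syngeneic, without error bars. B-cell sums are 22.3 and 19.2 on the allogeneic arrays against 129 and 74.8 on the syngeneic arrays, and macrophage sums are 165 and 162 against 43.2 and 81.5.

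Genes of the naive and memory state fell after allogeneic transplantation. Of 25 measured members 16 fell and 0 rose (median difference -1.67, against -0.0063 over all features). Ccr7, the receptor that guides T cells into lymphoid organs, was at 4.74 and 4.70 on the allogeneic arrays and 7.0 and 6.72 on the syngeneic arrays. It was lower on both allogeneic arrays, by 2.14 ± 0.27 (adjusted p = 0.000393). Bach2, a repressor of effector programmes, was at -1.18 and -0.79 against 2.40 and 1.87, and fell by 3.12 on the log2 scale. Foxp1, a transcription factor of quiescent T cells, was at 4.33 and 4.24 against 6.22 and 5.90, and Foxo1, which maintains naive-cell gene expression, at 3.34 and 3.27 against 5.07 and 4.45. Other members that fell were Nsg2 by 2.03 ± 0.19, Ramp1, a subunit of neuropeptide receptors, by 2.39 ± 0.26 (its further probes by -3.46 and -0.0020), Dapl1 by 2.18 ± 0.25, Als2cl by 2.19 ± 0.28 and Actn1, an actin crosslinker, by 1.90 ± 0.19. The count was 12 to 16 when 1 array was left out, with the lowest count without syngeneic replicate 1.

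The 9 members that were not called included the well known genes Tcf7, Il7r, Klf2 and Bcl2. Lef1, which is among the members that fell, was lower by 1.29 ± 0.28 but lost its call without syngeneic replicate 1. Its partner Tcf7, which encodes TCF-1, was at 3.40 and 3.51 against 3.72 and 3.83, a difference of -0.32 ± 0.15 (adjusted p = 0.186). Il7r, the receptor of the survival cytokine IL-7, was at 5.99 and 5.82 against 4.99 and 5.23, with a difference of 0.80 ± 0.29 (adjusted p = 0.0836). Its allogeneic arrays were the higher ones, opposite to the list's median. Klf2, which drives expression of S1pr1, differed by -0.54 ± 0.26, and Bcl2, a survival factor, by -0.58.

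Homing genes were mixed. Of 13 measured members of lymphoid homing and egress, 3 fell and 2 rose. Among the falls were Ccr7 and Itga6, an integrin subunit whose call was lost without syngeneic replicate 1. Itga4, the alpha-4 integrin chain that binds VCAM-1, was at 7.08 and 6.48 against 5.31 and 5.38 and rose by 1.43 ± 0.21 (adjusted p = 0.00097). Cxcr4, the receptor of CXCL12, rose by 1.20 ± 0.24 and lost its call without syngeneic replicate 1. S1pr1, the receptor for egress into lymph, was at 5.50 and 4.94 against 5.91 and 5.43 and was not called (-0.45 ± 0.32).

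**Figure D3:**
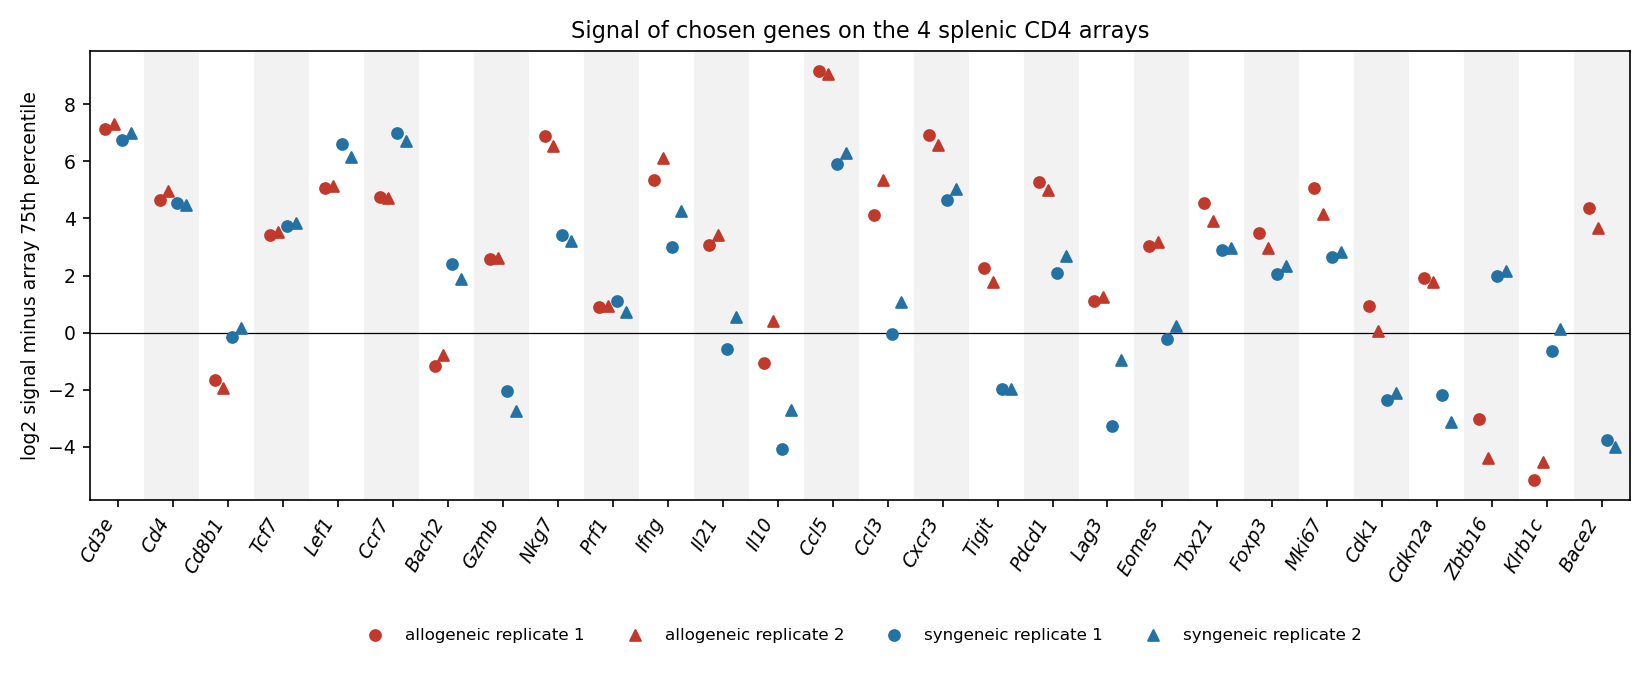
Log2 signal minus the array's 75th percentile (vertical axis) of 28 genes on the 4 splenic CD4 arrays; red marks allogeneic and blue syngeneic cells, circles replicates 1 and triangles replicates 2, without error bars. Levels can be compared between arrays within a gene but not between genes: Ccr7 sits near 4.74 and 4.70 in red and 7.0 and 6.72 in blue, Gzmb at 2.56 and 2.62 in red and -2.03 and -2.74 in blue, and for Prf1 the colours overlap.

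Some effector genes rose strongly while perforin did not differ detectably. Of 17 measured cytotoxic effectors 7 rose and 0 fell (median 1.08), and 6 to 11 rose when 1 array was left out, with 11 without allogeneic replicate 2. Gzmb, the serine protease granzyme B, was at 2.56 and 2.62 on the allogeneic arrays and at -2.03 and -2.74 on the syngeneic arrays, and rose by 4.98 ± 0.48 (adjusted p = 9.1e-05). Nkg7, a membrane protein of cytotoxic granules, was at 6.88 and 6.52 against 3.42 and 3.22 and rose by 3.38 ± 0.18. Cst7, which encodes the protease inhibitor cystatin F, was at 4.67 and 4.63 against 1.38 and 2.34. Srgn, the granule proteoglycan serglycin, rose by 1.35 ± 0.14, and Serpinb9 and Serpinb6b, inhibitors of serine proteases, by 1.43 ± 0.30 and 2.20 ± 0.39. Prf1, which forms the pore through which granzymes act, was at 0.89 and 0.95 against 1.12 and 0.72, so that the groups overlapped (difference 0.00 ± 0.19, adjusted p = 0.999). Gzma, granzyme A, was at 4.21 and 1.03 against 2.74 and 0.80, with replicates 1 above replicates 2 in both groups, and was not called (0.85 ± 0.88). Fasl, the death ligand, differed by 0.56 ± 0.40 and Gzmk by 1.18 ± 0.39, neither called.

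Among 18 measured T-cell cytokines 4 rose and 2 fell. Il21, a cytokine that acts on B cells and CD8+ T cells, was at 3.09 and 3.42 against -0.57 and 0.54 and rose by 3.27 ± 0.49 (adjusted p = 0.00111). Csf2, which encodes GM-CSF, was at 0.14 and -0.13 against -2.60 and -2.81 and rose by 2.71 ± 0.44. Il10, an anti-inflammatory cytokine, was at -1.07 and 0.42 against -4.09 and -2.70 and rose by 3.07 ± 0.61, a call lost without syngeneic replicate 1. Csf1, the macrophage growth factor, rose by 2.21 ± 0.51, a call lost without either replicate 1. Lta, lymphotoxin alpha, fell by 0.89 on the log2 scale (adjusted p = 0.00217). Il4 was also called lower (-2.40 ± 0.75), but its call was lost without any 1 of the 4 arrays. Ifng, the cytokine interferon gamma, was at 5.36 and 6.13 against 3.00 and 4.27. Both allogeneic arrays were above both syngeneic arrays, but the difference of 2.11 ± 0.67 missed the threshold (adjusted p = 0.0509). Il2 differed by 1.13 ± 0.52 and Tnf by -0.50 ± 0.40, neither called.

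Of 8 measured chemokines 5 rose (median 3.43), and 5 or 6 rose when 1 array was left out. Ccl5, an inflammatory chemokine, was at 9.16 and 9.07 against 5.91 and 6.30 and rose by 3.01 ± 0.26 (adjusted p = 2.85e-05). Ccl3 and Ccl4, further inflammatory chemokines, each rose by 4.22, with standard errors of 0.49 and 0.64. Ccl1, the ligand of CCR8, rose by 5.55 ± 1.05, from -1.56 and -5.18 to 3.80 and 0.56, and was above background on only 1 syngeneic array. Cxcl9, an interferon-induced ligand of CXCR3 that macrophages also make, rose by 3.85 ± 0.57. Of the 12 chemokine receptors measured, 6 rose and 1 fell. Cxcr3, the receptor for CXCL9 and CXCL10, was at 6.94 and 6.58 against 4.65 and 5.05 and rose by 1.91 ± 0.35. Cx3cr1, the fractalkine receptor, was at 3.68 and 2.32 against 0.00 and -0.08, and Ccr8 at -1.82 and -1.71 against -3.88 and -3.97, above background on 1 syngeneic array. These 3 kept their calls. Cxcr6 (1.03 ± 0.24) lost its call without any array except allogeneic replicate 2, and Ccrl2 (1.62 ± 0.50) without any except syngeneic replicate 2. The number that rose was 3 without either replicate 1. Ccr10, a receptor of skin-homing and mucosal cells, was at least 12-fold lower, at 1.44 and -0.72 on the syngeneic arrays and below background on both allogeneic arrays (adjusted p = 0.00144).

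Several inhibitory receptors rose after allogeneic transplantation. Of 18 measured 8 rose and 1 fell (median 1.41). Tigit, a receptor for CD155, was at 2.26 and 1.78 against -1.97 and -1.98 and rose by 4.00 ± 0.22 (adjusted p = 1.5e-06). Pdcd1, which encodes PD-1, was at 5.27 and 4.99 against 2.10 and 2.70 and rose by 2.73 ± 0.35 (adjusted p = 0.00041). Cd101 was at 1.1 and 1.19 against -0.65 and -0.53 and rose by 1.73 ± 0.32. For these 3 the rise was kept without any 1 array. The other 5 rises kept their direction but each lost its call when at least 1 of the 4 arrays was left out, as given for each below. Lag3, a receptor for class II molecules, was at 1.11 and 1.24 against -3.26 and -0.96, with a rise of 3.28 ± 0.66 that was 2.13 to 4.43 without 1 array and lost its call without syngeneic replicate 1. Entpd1, the ectoenzyme CD39, rose by 1.85 ± 0.38 and lost its call without the same array, and Cd200 by 1.60 ± 0.36, lost without either replicate 1. Ctla4, the competitor of CD28, rose by 1.78 ± 0.51 (1.12 to 2.44 without 1 array) and lost its call without syngeneic replicate 1 or allogeneic replicate 2. Havcr2, which encodes TIM-3, rose by 2.31 ± 0.66 (1.1 to 3.51) and was called without syngeneic replicate 2 alone of the 4. Cd160 was at least 3.27-fold lower, a call lost without syngeneic replicate 2, with a fitted difference of -3.28 to -1.35 without 1 array.

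Of 19 measured genes of costimulation and the TNF superfamily 7 rose and 0 fell, with a median of 0.50. Cd70, the ligand of CD27, was at 2.31 and 0.75 against -3.90 and -3.18 and rose by 5.07 ± 0.54 (adjusted p = 0.000122). Tnfrsf4, which encodes OX40, was at 7.89 and 7.33 against 4.49 and 5.16 and rose by 2.79 ± 0.35. Icos, a costimulator of helper cells, was at 6.42 and 6.48 against 5.0 and 5.05, and Tnfrsf18, which encodes GITR, at 6.39 and 5.85 against 4.69 and 4.80. Tnfsf8, the ligand of CD30, rose by 1.95 ± 0.28 and Tnfrsf1b, a TNF receptor, by 2.30 ± 0.34. Cd28 itself differed by 0.33 and Cd27 by -0.91, neither called. Of 22 activation antigens 12 rose and 0 fell, 8 without either replicate 1 and 8 without syngeneic replicate 2. Without allogeneic replicate 2 a fall was called in this list. Ly6a, which encodes Sca-1, rose by 2.84 ± 0.49, Lgals3, a galectin, by 2.55 ± 0.38, S100a4 by 2.50 ± 0.42, Anxa2 by 2.48 ± 0.27 and S100a6 by 2.02 ± 0.22. Cd44, a receptor for hyaluronan that antigen-experienced cells carry, rose by 1.46 ± 0.35 and lost its call without either replicate 1, with differences of 0.47 to 0.83 at its further probes. Cd69, an early activation antigen, was at 2.85 and 3.72 against 2.50 and 3.44, and replicates 2 were the higher ones in both groups (0.32 ± 0.75). Il2ra, the high-affinity IL-2 receptor chain, was at 3.18 and 2.80 against 2.78 and 3.17 and its groups overlapped (0.01 ± 0.43).

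Among transcription factors of effector and chronically stimulated T cells 10 of 22 measured rose and 1 fell. Eomes, a T-box factor of cytotoxic and memory cells, was at 3.04 and 3.18 against -0.23 and 0.24 and rose by 3.11 ± 0.25 (adjusted p = 1.93e-05). Batf, a factor of activated T cells, was at 5.69 and 5.48 against 3.35 and 3.32 and rose by 2.25 ± 0.19. Tox, a factor of chronically stimulated cells, was at 3.99 and 4.39 against 2.22 and 2.50 and rose by 1.83 ± 0.22. Hif1a, the oxygen-regulated factor, rose by 1.80 ± 0.23, Prdm1, which encodes BLIMP-1, by 2.32 ± 0.30 and Bhlhe40, a regulator of cytokine production, by 4.30 ± 0.67. Tbx21, which encodes the T-helper 1 factor T-bet, was at 4.55 and 3.90 against 2.88 and 2.98. Its arrays did not overlap, but the difference of 1.29 ± 0.41 missed the threshold (adjusted p = 0.0512). Nr4a2, a nuclear receptor induced by T-cell receptor signals, rose by 2.56 ± 0.77 (1.44 to 3.68 without 1 array), a call lost without syngeneic replicate 1 or allogeneic replicate 2. The 1 fall was Irf8, a factor of dendritic and B cells, at -4.82 and 2.36 against 3.35 and 4.82. Its difference of -5.31 ± 1.54 was -1.72 without allogeneic replicate 1, where the call was lost, as it was without either syngeneic array.

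Some genes of innate-like T cells fell. Zbtb16, which encodes PLZF, the factor of NKT and other innate-like cells, was at -3.04 and -4.40 on the allogeneic arrays and 1.97 and 2.15 on the syngeneic arrays. It fell by 5.78 on the log2 scale (adjusted p = 2.85e-05), and was above background on 1 of the 2 allogeneic arrays. Klrb1c, which encodes NK1.1, was below background on both allogeneic arrays and at -0.64 and 0.11 on the syngeneic arrays, at least 7.79-fold lower after allogeneic transplantation. The call was lost without syngeneic replicate 2, as was that of Il17rb, the IL-25 receptor, which was at least 22-fold lower but differed by -0.92 at its further probe. Klrb1a, of the same receptor family as Klrb1c, was at least 5.48-fold lower, a call lost without allogeneic or syngeneic replicate 2. Probes of such related genes can share signal. Of 13 measured genes of helper lineages and innate-like cells 4 fell and 2 rose, but 1 fell without syngeneic replicate 2. The 2 rises, Stat4 by 0.93 ± 0.21 and Rora by 1.44 ± 0.36, were lost without 1 array, Stat4 without allogeneic replicate 1 or syngeneic replicate 2 and Rora without any except allogeneic replicate 1. Gata3, the T-helper 2 factor, differed by 0.45. Of 14 NK receptors 3 fell and 2 rose. Klrd1, a partner of NKG2 receptors, rose by 1.30 ± 0.26, a call lost without syngeneic replicate 1, and Klrc1, one of those receptors, by 2.38 ± 0.56, a call lost without syngeneic replicate 1 or allogeneic replicate 2.

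Follicular helper genes gave 5 rises of 12 measured, Il21, Icos, Sh2d1a (1.11 ± 0.19), Cd200 and Slamf6, and 0 falls. The defining follicular genes Bcl6 and Cxcr5 differed by -0.57 and -0.28 and were not called, and Slamf6 was called with a rise of 1.02 ± 0.26 that was lost without any array except allogeneic replicate 2. Of 18 regulatory T-cell genes 7 rose and 0 fell, and 2 rose without syngeneic replicate 1. The rises were Il10, Tnfrsf4, Tnfrsf18, Ctla4, Ikzf2, Capg and Itgb8, most of which activated T cells also express. Ikzf2, which encodes Helios, lost its call without any array except syngeneic replicate 2, and the others except Tnfrsf4 and Tnfrsf18 lost theirs without syngeneic replicate 1, Ctla4 also without allogeneic replicate 2. Foxp3, the factor that defines regulatory T cells, was at 3.50 and 2.97 against 2.06 and 2.34, a difference of 1.03 ± 0.45 that was not called (adjusted p = 0.14).

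Genes of mitosis rose together. Of 38 measured members 30 rose and 0 fell (78.9%, against 17.4% called among features with a symbol). The median difference was 1.58, and 1.35 to 1.82 when 1 array was left out. Fewer members rose without any 1 of the 4 arrays, and fewest without syngeneic replicate 1. Without allogeneic replicate 2, 1 member fell. Prc1, which organises the central spindle, was at 3.73 and 3.14 against 0.48 and 0.72 and rose by 2.83 ± 0.21 (adjusted p = 1.2e-05). Cdk1, the kinase that drives entry into mitosis, was at 0.94 and 0.06 against -2.35 and -2.13 and rose by 2.74 ± 0.26. Ect2, which activates RhoA in cytokinesis, was at 0.96 and 0.63 against -1.37 and -1.08, and Nusap1, a spindle protein, at 1.35 and 0.54 against -1.37 and -1.14. Allogeneic replicate 1 was above replicate 2 for all 4, and both were above both syngeneic arrays. Mki67, the proliferation antigen Ki-67, was at 5.06 and 4.17 against 2.65 and 2.82 and rose by 1.88 ± 0.27. Ccna2 (2.20 ± 0.30), Ccnb2 (1.52 ± 0.20), Top2a (1.90 ± 0.29) and Plk1 (1.61 ± 0.30) rose as well. Ccnb1 had a difference of 1.81 and was not called, and Cenpa had the lowest difference at -1.29.

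The promoters of the mitosis genes that rose are shown because many such genes are known to share a pair of elements, the cell cycle genes homology region (CHR) and the CCAAT box. The 4 members with the smallest p that have a promoter in the RefSeq table used here (build GRCm38.p6) are printed 5′ to 3′ from 250 bases before to 50 bases after the gene's start. Capitals mark the CHR (TTTGAA, or TTCAAA on the other strand) and the CCAAT box (CCAAT, or ATTGG on the other strand), 2 motifs that can share at most 1 base. Prc1 lies at chr7:80294201-80294500 on the plus strand, Cdk1 at chr10:69352863-69353162 on the minus strand, Ect2 at chr3:27153829-27154128 on the minus strand and Nusap1 at chr2:119618048-119618347 on the plus strand.
Prc1: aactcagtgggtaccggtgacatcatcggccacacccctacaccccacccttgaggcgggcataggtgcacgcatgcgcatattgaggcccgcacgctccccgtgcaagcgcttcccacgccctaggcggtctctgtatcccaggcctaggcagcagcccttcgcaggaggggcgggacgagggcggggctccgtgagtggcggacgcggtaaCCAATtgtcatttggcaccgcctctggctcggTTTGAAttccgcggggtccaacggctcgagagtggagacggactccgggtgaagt
Cdk1: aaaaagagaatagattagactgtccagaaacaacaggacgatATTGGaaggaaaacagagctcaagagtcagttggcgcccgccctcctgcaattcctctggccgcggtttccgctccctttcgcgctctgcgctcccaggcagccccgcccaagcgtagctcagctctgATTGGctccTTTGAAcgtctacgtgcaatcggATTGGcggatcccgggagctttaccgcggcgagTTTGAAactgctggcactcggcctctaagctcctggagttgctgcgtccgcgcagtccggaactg
Ect2: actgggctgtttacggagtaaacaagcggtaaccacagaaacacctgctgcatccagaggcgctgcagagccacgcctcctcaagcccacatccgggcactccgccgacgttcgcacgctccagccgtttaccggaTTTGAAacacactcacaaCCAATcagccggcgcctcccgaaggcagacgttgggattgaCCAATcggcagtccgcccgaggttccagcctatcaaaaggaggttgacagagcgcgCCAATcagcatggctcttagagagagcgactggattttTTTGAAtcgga
Nusap1: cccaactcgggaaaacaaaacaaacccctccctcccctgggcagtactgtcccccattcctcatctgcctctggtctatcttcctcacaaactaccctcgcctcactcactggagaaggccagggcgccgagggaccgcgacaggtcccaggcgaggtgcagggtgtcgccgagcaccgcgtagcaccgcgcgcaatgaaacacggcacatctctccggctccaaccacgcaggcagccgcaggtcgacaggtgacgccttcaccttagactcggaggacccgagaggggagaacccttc

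Prc1, Cdk1 and Ect2 hold both motifs in these windows, and Nusap1 holds neither. Of the 30 mitosis genes that rose 23 were matched to the table, and 16 of those (69.6%) held a CHR, 18 (78.3%) a CCAAT box and 15 (65.2%) both. Of the 31 measured members that were matched, whether called or not, 71.0% held a CHR and 77.4% a CCAAT box. Over the 10290 tested genes with a promoter the shares were 12.4% and 38.9%, and over all 27025 promoters of the table, taken as 1 per gene, 18.1%, 37.9% and, for both motifs, 7.12%. These matches are letters in a window and describe no binding.

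DNA replication genes followed less evenly. Of 31 measured 12 rose and 0 fell (median 0.53), and 7, 3, 15 or 9 rose without allogeneic replicate 1, syngeneic replicate 1, allogeneic replicate 2 or syngeneic replicate 2, while 5 fell without allogeneic replicate 2. Mcm6, a subunit of the replicative helicase, was at 6.59 and 5.74 against 4.75 and 4.82 and rose by 1.38 ± 0.23. Rrm2, the regulated subunit of ribonucleotide reductase, was at 4.80 and 3.84 against 2.32 and 2.73 and rose by 1.80 ± 0.30. Lig1, a DNA ligase, rose by 1.05 ± 0.18. Tk1, thymidine kinase, rose by 2.07 ± 0.38 and Uhrf1, which couples DNA methylation to replication, by 1.39 ± 0.28, both calls lost without syngeneic replicate 1. Pcna, the sliding clamp, differed by 0.15 and Mcm2 by 0.14, neither called.

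Of 15 measured genes of CDK inhibition and quiescence 4 rose and 0 fell (26.7%, against 17.4% called among features with a symbol). The list's median was -0.21, with 9 of 15 lower, and 2 fell without allogeneic replicate 2. Cdkn2a, which encodes p16INK4a and p19ARF, was at 1.92 and 1.76 against -2.19 and -3.14 and rose by 4.50 ± 0.31 (adjusted p = 7.08e-06). Its neighbour Cdkn2b, which encodes p15INK4b, was at 1.0 and -0.23 against -3.58 and -3.93 and rose by 4.14 ± 0.47. Cdkn1a, which encodes p21, was at -0.63 and -0.49 against -4.66 and -3.35 and rose by 3.44 ± 0.55. Cdkn2b and Cdkn1a were above background on only 1 syngeneic array. Cdkn3, a phosphatase of mitotic cells, rose by 1.93 ± 0.20. Cdkn1b, which encodes p27, differed by -0.21 and was not called.

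Of 23 measured survival and death genes 6 rose and 1 fell, and 2 rose without syngeneic replicate 1. The inflammatory caspases Casp4 and Casp1 were at 5.79 and 5.65 against 2.68 and 3.52, and at 5.52 and 5.19 against 3.01 and 3.60. They rose by 2.62 ± 0.24 and 2.05 ± 0.24. The death activator Bcl2l11, which encodes BIM, fell by 0.78 on the log2 scale, a call lost without syngeneic replicate 1.

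Interferon-induced genes rose in part. Of 33 measured genes of the type I interferon response 16 rose and 0 fell (median 0.84), with 15, 11, 13 or 10 rises without allogeneic replicate 1, syngeneic replicate 1, allogeneic replicate 2 or syngeneic replicate 2, and 3 falls without allogeneic replicate 2. Ifih1, which encodes the RNA sensor MDA5, was at 3.30 and 2.83 against 1.23 and 1.26 and rose by 1.82 ± 0.20 (adjusted p = 0.000153). Oas1a, an activator of RNase L, was at 5.83 and 5.66 against 3.65 and 3.12 and rose by 2.36 ± 0.27. Rsad2, the antiviral protein viperin, rose by 2.19 ± 0.29 and its neighbour Cmpk2 by 2.08 ± 0.27. Ifi44 had the largest difference of the list, 3.31 ± 0.49. Other well known members were not called: Isg15 differed by 1.19, Irf7 by 1.14, Bst2 by -0.10 and Ifit2 by -0.10.

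Of 17 GTPases induced by interferon gamma 6 rose and 0 fell, and 3 rose without syngeneic replicate 1, while 1 fell without allogeneic replicate 2. Iigp1 was at 2.36 and 2.08 against 0.40 and 0.60 and rose by 1.72 ± 0.20, Gbp8 by 1.60 ± 0.21 and Gbp3 by 1.5 ± 0.23. Members of the Gbp family are close paralogues whose probes may share signal. In class I presentation 2 of 18 measured genes rose (11.1%, against 17.4% called among features with a symbol). They were H2-K1, a class I heavy chain, by 0.84 ± 0.15 and Nlrc5, its transactivator, by 0.87 ± 0.19, with 0.23 at the further probe of Nlrc5. Irf1, an interferon-induced transcription factor, differed by 0.34 ± 0.17 and was not called, and its further probe differed by -0.31. In the class II pathway 0 of 10 measured genes were called by limma, and 2 had an unadjusted p under 0.05, although all 10 differences were below 0, from -2.30 for H2-Ob to -0.62 for H2-Eb1. The B-cell markers that fell beside them are given above, and their part was not tested.

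Cytokine receptors were divided. Of 25 measured 8 rose and 5 fell. Il18r1, a chain of the IL-18 receptor, was at 6.24 and 6.04 against 3.92 and 3.63 and rose by 2.37 ± 0.30. Il12rb1, a chain of the IL-12 receptor, was at 4.65 and 4.13 against 2.80 and 2.90 and rose by 1.54 ± 0.21. Il1r2, the decoy receptor of IL-1, had the largest rise, 4.67 ± 0.54, from -2.93 and -1.44 to 2.71 and 2.27. The 2 chains of the interferon-gamma receptor went opposite ways: Ifngr1 was at 6.72 and 6.29 against 5.32 and 5.12 and rose by 1.28 ± 0.18, and Ifngr2 was at -0.39 and -0.32 against 2.64 and 2.32 and fell by 2.84 on the log2 scale. Tgfbr3, a co-receptor for TGF-beta, was at -0.90 and -1.44 against 2.07 and 1.70 and fell by 3.06 on the log2 scale, and Il4ra fell by 2.00 on that scale, a call lost without syngeneic replicate 1. Ifnar1, a chain of the type I interferon receptor, had a difference of -3.37 that was not called. Among 17 genes of STAT and SOCS signalling 4 rose (23.5%, against 17.4% called among features with a symbol). Cish was higher by 1.06 ± 0.20 and Jak2 by 0.76 ± 0.19, beside Stat4. Jak2 lost its call without any array except allogeneic replicate 2 (0.46 to 1.06) and Cish without syngeneic replicate 1. In the list 1 gene rose without allogeneic replicate 1, and 1 without either syngeneic array, while 7 rose without allogeneic replicate 2.

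In the T-cell receptor complex and its signalling 4 of 23 measured genes rose, Cd3g, Cd2, Ptpn22 and Zap70, and 2 fell. Ptpn22, a phosphatase of the pathway, lost its call without any array except allogeneic replicate 2, and the kinase gene Zap70 (0.49 ± 0.15) without any 1 of the 4. Trat1, an adaptor that stabilises the complex, was at 1.56 and 1.15 against 3.36 and 3.17 and fell by 1.91 on the log2 scale. Grap2, an adaptor of SLP-76, was at -3.92 and 0.03 against 1.90 and 1.74, and its difference of -3.76 ± 0.82 was -1.79 without allogeneic replicate 1. Its call was lost without syngeneic replicate 1. Immediate early genes gave 1 rise and 2 falls of 26 measured, with a median of -0.43 that turned to 0.19 without allogeneic replicate 1 and 0.43 without syngeneic replicate 2. Junb fell by 2.64 on the log2 scale (-4.44 to -0.83 without 1 array), from 0.34 and 0.41 to -4.07 and -0.46, a call lost without any array except allogeneic replicate 2. Myc, a driver of growth, was at 0.14 and -0.03 against 0.92 and 1.24 and fell by 1.03 on that scale, a call lost without either replicate 2.

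Many genes of sterol synthesis and uptake fell. Of 24 measured 10 fell and 1 rose (median -0.75), and 6 to 11 fell when 1 array was left out. Sqle, squalene epoxidase, was at 1.53 and 0.65 against 2.82 and 2.74, and Idi1, an isomerase of the pathway, at 0.56 and 0.06 against 1.95 and 1.76. They fell by 1.69 and 1.55 on the log2 scale. Fdps fell by 1.47 and Mvk by 1.12 on that scale, and Srebf2, the transcription factor of the pathway, by 1.45, a call lost without syngeneic replicate 1. The 1 rise was Abcg1, a cholesterol exporter (0.57 ± 0.16), lost without any array except allogeneic replicate 2.

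Glycolysis genes were split, with 4 rises and 3 falls of 23 measured. Without allogeneic replicate 2, 12 rose. Slc16a3, which exports lactate, was at 2.46 and 1.82 against -0.27 and -0.08 and rose by 2.32 ± 0.24. Tpi1, triosephosphate isomerase, rose by 1.42 ± 0.24. Pdk1, which encodes an inhibitory kinase of pyruvate dehydrogenase, fell by 2.04 on the log2 scale, from 2.15 and 1.71 to -0.35 and 0.12. Eno3, an enolase mainly of muscle, fell by 1.26 on that scale. Ldha, lactate dehydrogenase, differed by 0.09. In the respiratory chain 1 of 38 measured genes was called (2.63%), Cox5b (0.57 ± 0.17), lost without any array except allogeneic replicate 2, and without that array 11 rose. Of 39 ribosomal protein genes 1 rose and 1 fell (5.13%): Rpl23, of which a further probe went the other way, and Rpl5. Both lost their calls without either replicate 1, and Rpl5 also without syngeneic replicate 2. With quantile normalization 5 ribosomal protein genes fell, and 7 with normexp background correction and quantile normalization together. Of 22 genes of the endoplasmic reticulum's chaperones and stress response 1 was called, Herpud1, lower by 0.71 ± 0.19 and lost without either replicate 2. Among 12 amino acid transporters Slc7a11, the cystine transporter, was at least 6.58-fold lower, with a fitted difference of -7.01 to -2.66 without 1 array, and Slc1a4 rose by 0.75 ± 0.21 (0.47 to 1.03), a call lost without syngeneic replicate 1 or allogeneic replicate 2.

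Of 11 measured purinergic genes Adora2a, the receptor through which adenosine dampens T cells, was at 3.77 and 3.44 against 2.31 and 2.37 and rose by 1.27 ± 0.19. Entpd1 rose with it, as given above, and Ada, which breaks adenosine down, was called lower by 0.80 ± 0.21, a call lost without any 1 of the 4 arrays. Of 18 genes of DNA methylation and Polycomb 2 rose and 3 fell. Without syngeneic replicate 1 the rises were 0 and without allogeneic replicate 2 they were 4, and 1 fell without either syngeneic array. Tet1, which oxidises methylcytosine, was at -0.77 and -1.61 against 1.34 and 1.25 and fell by 2.49 on the log2 scale, but its further probe differed by -0.49. Ezh2, the Polycomb methyltransferase, rose by 0.76 ± 0.21 (0.47 to 1.05 without 1 array), a call lost without any array except allogeneic replicate 2.

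**Figure D4:**
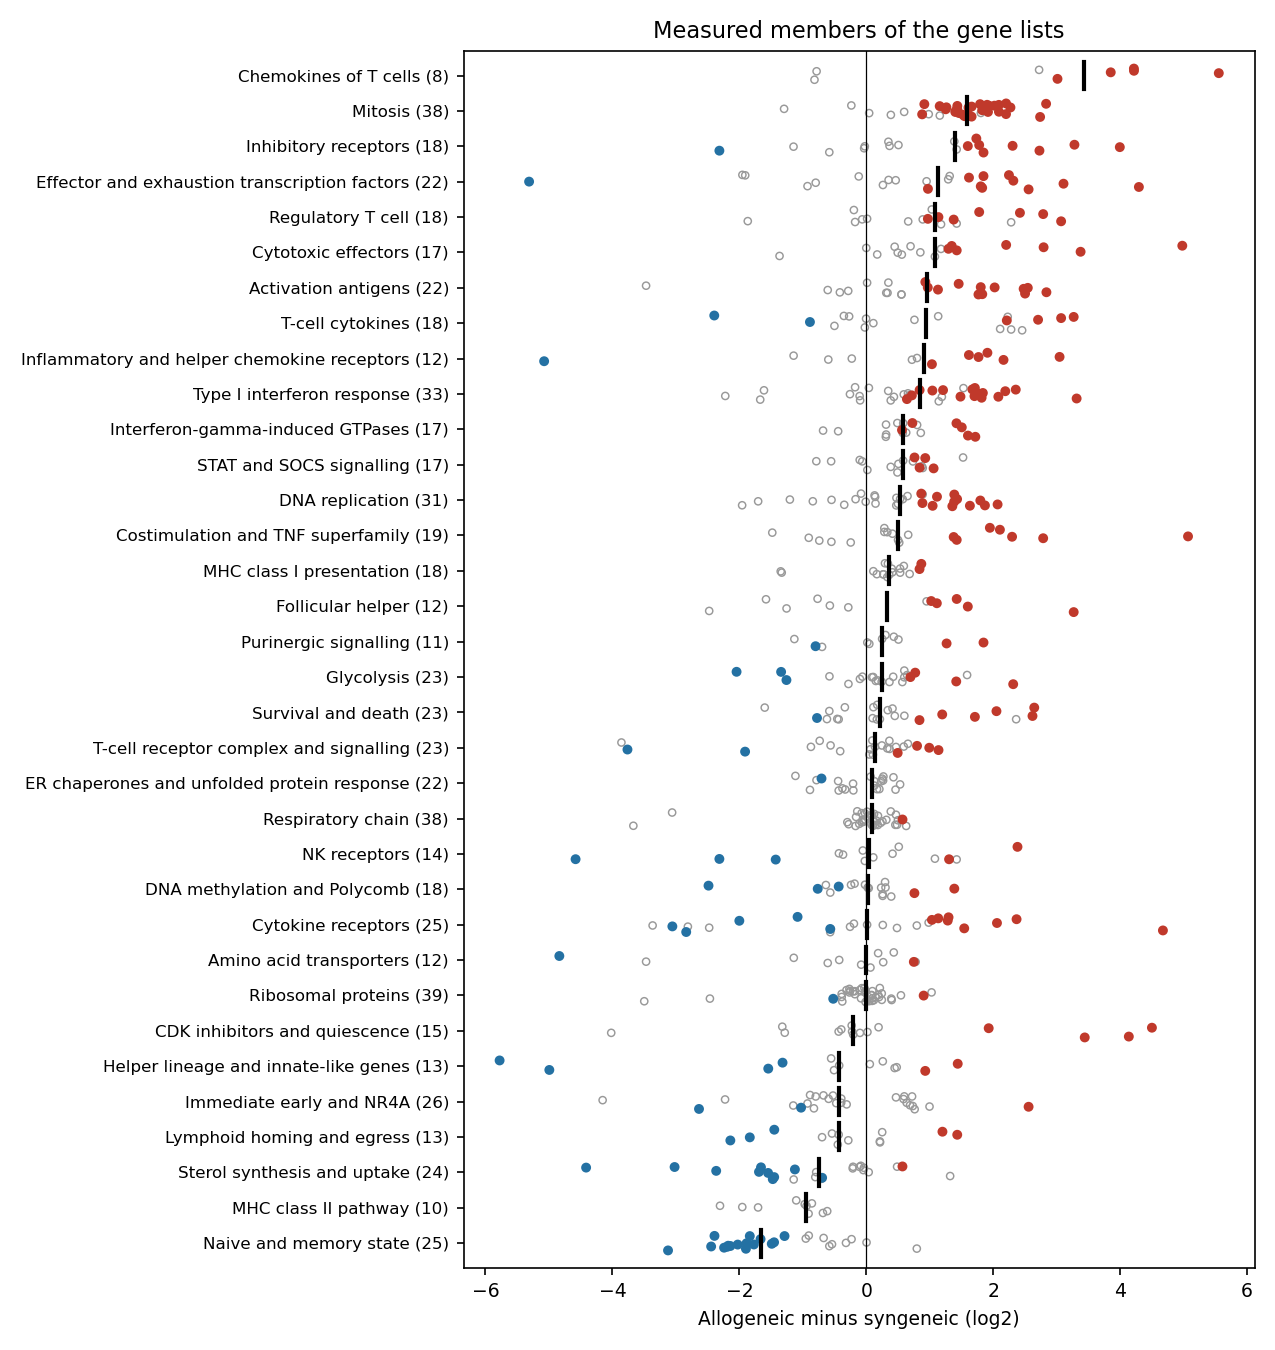
Difference between allogeneic and syngeneic splenic CD4 cells (horizontal axis, log2) of each measured member of 34 gene lists, with the number of measured members in brackets and lists ordered by their median. Red and blue points are members called higher and lower, open points were not called, and the black bar is the median, which runs from 3.43 for chemokines to -1.67 for the naive and memory state; vertical scatter within a list only separates points.

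Many of the largest single differences were in genes outside these lists. Bace2, a membrane protease, had the largest rise of any gene with a symbol, from -3.76 and -4.02 to 4.36 and 3.68 (7.91 ± 0.62, adjusted p = 1.61e-05), and was above background on 1 syngeneic array. Gldc, an enzyme of glycine breakdown, rose by 7.44 ± 0.47 and Scin, an actin-severing protein, by 7.44 ± 0.89, each above background on 1 syngeneic array. Gcg, the precursor of glucagon, was at 1.92 and 2.26 on the allogeneic arrays and below background on both syngeneic arrays, at least 80.1-fold higher. By the same bound Cfb, complement factor B, was at least 73.3-fold higher, Tff1, a trefoil factor, at least 71.3-fold and Tprg at least 22.3-fold. Erich3 was at least 15.8-fold higher and Sln, a regulator of the calcium pump of muscle, at least 12.9-fold. Lilrb4a, an inhibitory receptor gene, was at 7.13 and 6.53 against 0.41 and 1.64 and rose by 5.80 ± 0.51, and Lilr4b rose by 5.63 ± 0.51. These 2 genes are near-identical copies and their probes may read each other. Ccl24, a chemokine of CCR3 made by macrophages, rose by 6.53 ± 0.65 and Col16a1, a collagen, by 5.96 ± 0.64. Fn1, fibronectin, was at least 38.3-fold higher and at -0.76 and 2.81 on the allogeneic arrays, a call lost without syngeneic replicate 1 or allogeneic replicate 2. The macrophage markers that rose beside these genes are given above, and their part was not tested.

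Among the largest falls were 3 kallikrein genes. Klk1b5 was at least 70.7-fold lower after allogeneic transplantation, Klk1b26 at least 41.4-fold and Klk1 at least 17.6-fold. All 3 were below background on both allogeneic arrays, and on the syngeneic arrays Klk1b5 was at 1.38 and 4.46, Klk1b26 at 0.62 and 3.68 and Klk1 at -0.28 and 2.48. Syngeneic replicate 2 was therefore the higher for each, and without it Klk1b5 lost its call. These genes are close paralogues and their probes may share signal. Adgrg5, an adhesion G-protein-coupled receptor, was at -3.75 and -3.49 against 1.67 and 2.81 and fell by 5.86 on the log2 scale (adjusted p = 7.43e-06). Ccnd1, a G1 cyclin, was at least 11.7-fold lower, at -0.51 and 1.16 on the syngeneic arrays. Cd209a, a lectin of dendritic cells, was at least 8.12-fold lower, and Pdzd4 at least 9.83-fold. Lifr, a receptor of leukaemia inhibitory factor, was at least 7.29-fold lower, a call lost without allogeneic replicate 1 or syngeneic replicate 2, and its further probe differed by -0.33. Cox6a2 and Upb1 fell by 5.48 and 5.47 on the log2 scale, both calls lost without syngeneic replicate 2, and Slc16a5, a carrier of monocarboxylates, by 4.84 on that scale.

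The transplant difference was set against that of splenic CD8 cells of the same series (3 allogeneic and 3 syngeneic arrays), which share no array with the CD4 groups, by the difference between both differences in the same limma fit. This interaction was called for 2698 of 24651 features (10.9%), 1274 of them also called in CD4 cells, and for 1181 without syngeneic replicate 1. The transplant comparison itself called 38% of these features in CD8 cells and 15.5% in CD4 cells, with more arrays in CD8. Mitosis genes had a median difference of 3.86 in CD8 cells against 1.58 in CD4 cells, and the interaction was called for 31 of 38, all with the smaller value in CD4 cells. For DNA replication it was called for 23 of 31, again all smaller in CD4 cells. Cdk1 rose by 2.74 in CD4 cells and by 4.38 in CD8 cells, and Mki67 by 1.88 and 3.84. Naive and memory genes were called in 10 of 25, all with the higher value in CD4 cells: Ccr7 differed by -2.14 in CD4 cells and -4.41 in CD8 cells, Tcf7 by -0.32 and -2.20 and Il7r by 0.80 and -1.99. The type I interferon response had medians of 0.84 in CD4 cells and 0.58 in CD8 cells, and the interaction was called for 2 of 33, among them Ifi44.

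**Figure D5:**
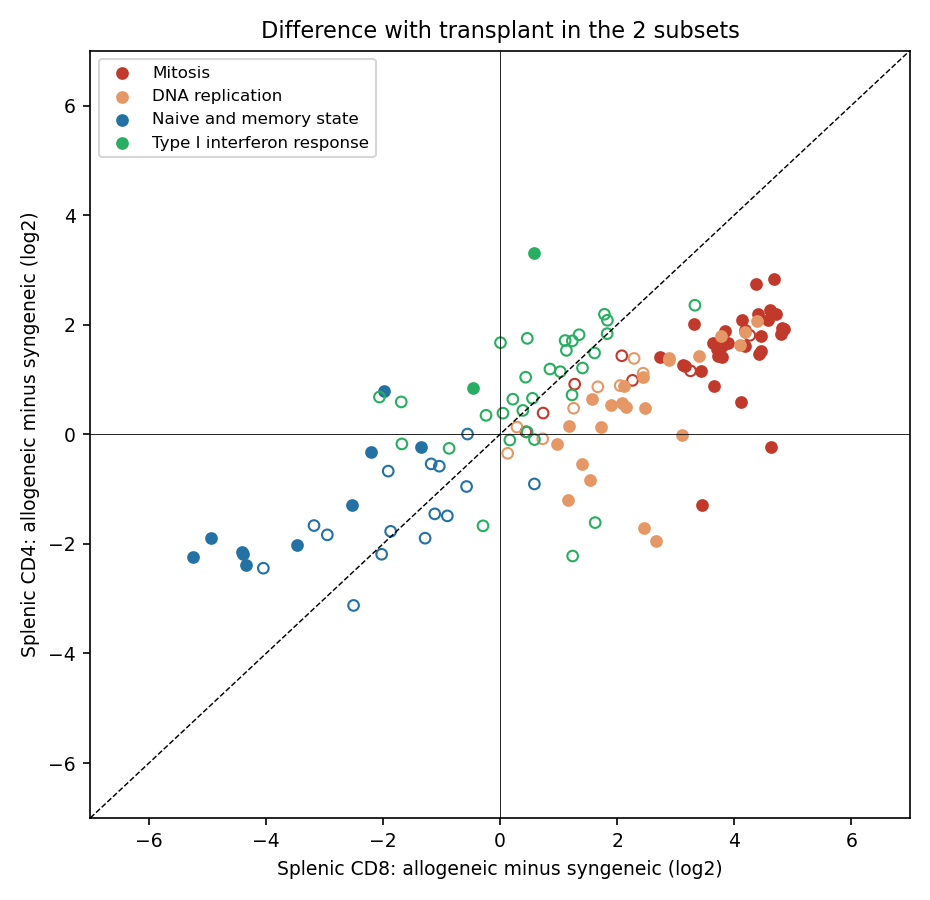
Allogeneic minus syngeneic difference (log2) in splenic CD8 cells (horizontal axis) and splenic CD4 cells (vertical axis) for the measured members of 4 gene lists. Filled points are genes whose difference between subsets was called, open points were not, and the dashed line marks equal differences; 31 of 38 mitosis genes are filled and lie below the line.

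Cytotoxic effectors gave the interaction for 5 of 17 genes, all with the smaller difference in CD4 cells. Prf1 differed by 0.00 in CD4 cells and 2.05 in CD8 cells (interaction -2.05 ± 0.24, adjusted p = 0.00058), and Fasl by 0.56 and 4.92 (-4.35 ± 0.52). Gzmb rose in both subsets, by 4.98 and 7.41 (-2.43 ± 0.64). Pdcd1 and Tigit also rose less in CD4 cells, with interactions of -3.45 ± 0.45 and -2.57 ± 0.29, Tigit being above background on 1 of 3 syngeneic CD8 arrays. Eomes went the other way, with a difference of 3.11 in CD4 cells and 1.80 in CD8 cells (1.31 ± 0.32, adjusted p = 0.025). Its mean level was nonetheless lower in CD4 than in CD8 cells, at 0.0056 against 3.70 after syngeneic and 3.11 against 5.50 after allogeneic transplantation. Cxcr3 had differences of 1.91 and 1.85, with an interaction of 0.06 ± 0.45 that was not called.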

How the data were processed

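The members are the arrays titled as splenic CD4 cells. The gene lists, members and alternatives were chosen with earlier results of these data known. Replicate numbers follow the titles, and slides the file headers. The deposited scanner files hold each spot's 1-colour intensity as a processed signal, background-subtracted by the software that the file headers name, Agilent Feature Extraction 11.5.1.1. The authors' deposited log2 value table equals, within r of 0.9998 or more for each array, log2 of these signals minus the array's 75th percentile, with each probe centred on its median over arrays. It served as an alternative. Neither the aligning of probes to genes nor a genome build is given in the sources used here. Gene symbols were taken from a RefSeq table, by matching the accession that the scanner files give for each probe. Of 55681 probes, 28025 matched no single symbol in this way.

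Control spots were left out, signals were scaled to the array's 75th percentile and log2 values were taken. Of the probes, 28567 were well above background on both arrays of either CD4 group and were kept, and the brightest probe stood for a gene, which gave 24651 features. limma 3.58.1 in R 4.3.3 fitted 1 mean per group over all 16 arrays (lmFit and eBayes, 10 residual and 2.20 prior degrees of freedom), with Benjamini-Hochberg adjustment at 0.05. A missing value, which 253 features had, was left out of that feature's fit. The fit was tested on simulated data with known changes. Replicate numbers were checked for pairing: the deviations of same-numbered arrays correlated with r = 0.21, and with 2 pairs they do not establish one.

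Genes were named by a rule: the 15 called rises and the 15 called falls of largest size, in every list the 4 smallest p or fewer, the 10 largest interactions and a set of T-cell genes, 187 in all, of which 151 were called. Cd8a, also in that set, was not tested. Some list members are not reported here by name, and the counts of the lists include them. Other list members and markers given as examples were chosen after their values were seen. Alternatives were other normalizations, background correction, filters, probes, thresholds, sets of arrays, slide and replicate blocks, array weights, variance prior and each array left out. Arrays give no counts, so the number of arrays limits the precision.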

Additional observations from a re-analysis of the deposited data

Results flagged for a closer look

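The interaction of subset and transplant was called for the 10 genes below, which are the largest by size among genes with a symbol that were called in CD4 cells too. Each value is the CD4 minus the CD8 transplant difference on the log2 scale, with its adjusted p from limma.

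In 6 genes the difference was lower in CD4 cells. Tmem273 had an interaction of -9.27 ± 0.45 (adjusted p = 1.4e-06), with a difference of 7.14 in CD8 cells. Zbtb16 had -8.61 ± 0.64 (adjusted p = 2.9e-05) and 2.83 in CD8 cells. Klrb1a had -7.56 ± 1.04 and 4.00 in CD8 cells, and Cd160 had -6.16 ± 0.61 and 3.85 in CD8 cells. Il17rb had -6.32 ± 1.41 and Abcb9 -5.98 ± 1.52, with 1.32 and 1.97 in CD8 cells. For Abcb9 the CD4 difference of -4.02 lay between -6.85 and -1.19 without 1 array and lost its call without either syngeneic array.

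In 4 genes the difference was higher in CD4 cells. Fn1 had an interaction of 6.58 ± 1.88, Cxcl9 of 6.46 ± 0.74, Gcg of 5.86 ± 0.54 and Sln of 5.52 ± 0.89. Their differences in CD8 cells were -0.32, -2.60, 1.92 and 0.41. Several of these values rest on signals below background and are no measured sizes. Fn1 and Sln were not well above background on any splenic CD8 array or on either syngeneic CD4 array. Gcg, Tmem273, Klrb1a and Il17rb were below it on all 3 syngeneic CD8 arrays, and Gcg also on both syngeneic CD4 arrays. Klrb1a, Il17rb and Cd160 were below it on both allogeneic CD4 arrays. With a common signal floor the interactions were 1.96 for Sln, 3.53 for Fn1 (adjusted p = 0.199), 4.59 for Gcg, -5.72 for Tmem273, -3.01 for Klrb1a, -4.21 for Il17rb and -4.84 for Cd160. With normexp and quantile normalization together they were 1.48, 2.93, 3.63, -4.89, -2.83, -3.65 and -3.92 in the same order. Zbtb16 had -4.83 and Cxcl9 4.14 under that last setting.

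Of the 10, Tmem273, Zbtb16, Klrb1a, Cd160, Cxcl9, Gcg and Sln missed the threshold only with slide 2 alone, among 19 or 20 alternatives each. Abcb9 was called in 14 of 20, Il17rb in 13 of 19 and Fn1 in 8 of 19.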

How the results depend on the processing

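The fit of only the 10 splenic arrays was chosen after seeing the data. Called features, then higher and lower, were 2224 (1551 and 673) with no filter on probes, 6628 (3710 and 2918) with slide 1 alone, 0 (0 and 0) with slide 2 alone, 987 (652 and 335) with array weights, 7 (6 and 1) with only the 4 splenic CD4 arrays, 326 (196 and 130) against a threshold of 2-fold and 2176 (1304 and 872) with only the 10 splenic arrays. The causes of these shifts were not tested, beyond fewer arrays in some fits. Leaving out 1 array gave 1387 to 4553 called, 843 to 2694 higher, 544 to 1859 lower and 1181 to 3784 interactions, the lone array of a group being assumed to vary like the others. With the replicate block 4106 features were called, 2508 higher and 1598 lower, and 147 of 151 named calls were kept. Other settings kept fewer of the 151: 129 with no filter on probes, 127 with only the 10 splenic arrays and 102 with array weights. Against a threshold of 2-fold 65 were kept, and with only the 4 splenic CD4 arrays 5. The other alternatives stayed within 1.5 times of the 3814 reported. Of all 3814 reported calls, 80 had a difference of opposite sign with a common signal floor and 21 with the mean of a gene's probes. None of the 151 named calls reversed under any alternative run, and 104 kept their call without any 1 array. Among uncalled genes the sign turned with slide 2 alone for Egr2 (-0.033), Sdhd (0.11), Prf1 (0.23) and Il2ra (-0.38), and with normexp and quantile normalization together for Cd4 (-0.26). It also turned when 1 array was left out, where Sdhd ran from -7.39 to 0.049, Gzma from -0.74 to 2.44, Prf1 from -0.20 to 0.20, Fasl from -0.12 to 1.24, Il2ra from -0.18 to 0.21 and Cd69 from -0.16 to 0.79. For 6068 features the signal was above background on both syngeneic arrays but not on both allogeneic arrays, and for 244 the reverse held. These counts include features above background on 1 array of the other group. Falls that the reported fit did not call appeared in further lists when 1 array was left out. Without allogeneic replicate 2 this held for the respiratory chain and effector transcription factors, and without syngeneic replicate 1 for cytotoxic effectors.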
